A study of Homo sapiens with 3 samples.

Results

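A set of 10 genes of the NF-kB pathway were followed in AGS cells, an established human line from a gastric adenocarcinoma: the subunit genes NFKB1, NFKB2, RELA and RELB, the inhibitor genes NFKBIA and NFKBIE, and the target genes IL6, ICAM1, CCL2 and IER3. They were found by gene name as 10 of the 50868 genes in the deposited table, each under 1 identifier. The names were chosen with earlier results of these data known, so counts over the 10 describe them and support nothing by themselves. Cells were kept for 48 h with DMSO as the negative control, with 12 µM SFA or with 18 µM SFE, and total RNA depleted of ribosomal RNA was sequenced. The AGS cells of all 3 groups were cultured alike, each group has 1 library, and SFA and SFE are code names that the labels do not spell out. No difference could therefore be set against the spread between cultures, no test between groups was possible, and all intervals below are 95% intervals that cover counting error only.

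NF-kB is a family of transcription factors that act as pairs of Rel proteins. In resting cells inhibitor proteins of the IkB kind hold these pairs in the cytoplasm. In the canonical route receptors for cytokines or microbial products switch on the IKK kinases, IkB alpha (NFKBIA) is degraded, and pairs such as RELA with the NFKB1 product enter the nucleus. In the non-canonical route the kinase NIK (MAP3K14) leads to processing of the NFKB2 precursor, whose product pairs with RELB. Many pathway genes, among them NFKBIA, NFKB2 and RELB, are themselves known NF-kB targets, and in gastric epithelium the pathway is known for the response to Helicobacter pylori.

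Promoter sequence is shown because several of the 10 genes are known for NF-kB sites near their starts. Windows running from 250 bases before to 50 bases after a start (RefSeq, build GRCh38.p14) were present for NFKB1, NFKB2, RELA, NFKBIA, IL6 and ICAM1, with 10 windows in all. RELB, NFKBIE, CCL2 and IER3 had no window in the table used. The kB consensus, 10 bases searched on both strands, was found in 5 of these 10 windows, against 11.3% of all 35116 windows. The shorter motif GGANNNTCC, which is its own reverse complement and can overlap a kB match, was found in 6 of the 10, against 9.32% of all windows. The AP-1 motif TGANTCA was found in none of the 10, against 7.71%. A match describes letters only, and binding was not measured. Capitals mark the matched bases of either NF-kB motif, all stretches read 5′ to 3′ on the gene's strand, and stretches whose surroundings reach an annotated exon were kept to 30 bases or fewer.
NFKB1, chr4:102501300-102501329, plus strand: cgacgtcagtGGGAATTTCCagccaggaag
NFKB2, chr10:102394461-102394490, plus strand: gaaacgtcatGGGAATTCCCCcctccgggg
NFKB2, chr10:102394490-102394519, plus strand: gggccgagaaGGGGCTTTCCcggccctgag
NFKB2, chr10:102395484-102395583, plus strand: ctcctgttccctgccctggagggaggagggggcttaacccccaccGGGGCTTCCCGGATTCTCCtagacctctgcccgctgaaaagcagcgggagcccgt
NFKB2, chr10:102395674-102395703, plus strand: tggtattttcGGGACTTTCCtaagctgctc
NFKBIA, chr14:35404776-35404875, minus strand: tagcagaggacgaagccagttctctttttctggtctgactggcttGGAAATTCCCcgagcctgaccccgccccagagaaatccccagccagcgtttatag
IL6, chr7:22727117-22727146, plus strand: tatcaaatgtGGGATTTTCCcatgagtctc
ICAM1, chr19:10270924-10270952, plus strand: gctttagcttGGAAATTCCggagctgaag
The sites began 49 bases before the start in NFKB1, 73 in IL6, 81 in NFKBIA and 186 in ICAM1. The ICAM1 stretch held the shorter motif only. Matches to the shorter motif that are not shown lay 242 bases before the NFKBIA start and 50 bases before a RELA start. NFKB2 carried kB matches before 2 of its 3 starts and none at the first, and NFKB1 only at its first.

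RELB, IL6, NFKB2, NFKBIE and ICAM1 stood higher in both compound libraries than with DMSO, CCL2 stood lower in both, and NFKB1 stood level. Ratios of counts, after division by the library totals, ran from 5.95-fold higher for RELB with SFA to 2.12-fold lower for CCL2 with SFE. By this ratio 5 of the 10 genes were at least 2-fold higher with SFA (4.40% of 11680 measured genes) and 5 with SFE (4.63%). At least 2-fold lower were 0 with SFA (3.63% of measured genes) and 1 with SFE, CCL2 (2.80%). FPKM is the count per kilobase, scaled for the size of the library, with a length per gene that no source used here gives. On the scale of log2(FPKM + 1) low genes are damped. There 4 of the 10 were at least 2-fold higher with SFA (1.36% of measured genes) and 2 with SFE (1.37%). On that scale 0 were at least 2-fold lower with SFA (1.34%) and 0 with SFE (1.01%). The median difference of the 10 genes in log2(FPKM + 1) was 0.60 with SFA and 0.46 with SFE, against 0.01 and 0.03 over all measured genes. The 2 comparisons share the DMSO library, so an error in that library would move both. A gene counts as measured when any of the libraries puts it at 1 FPKM or higher. All 10 passed, but RELB and IL6 were under 1 FPKM with DMSO and passed only through the libraries where they stood higher, so the counts over the 10 are a description.

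**Figure D1:**
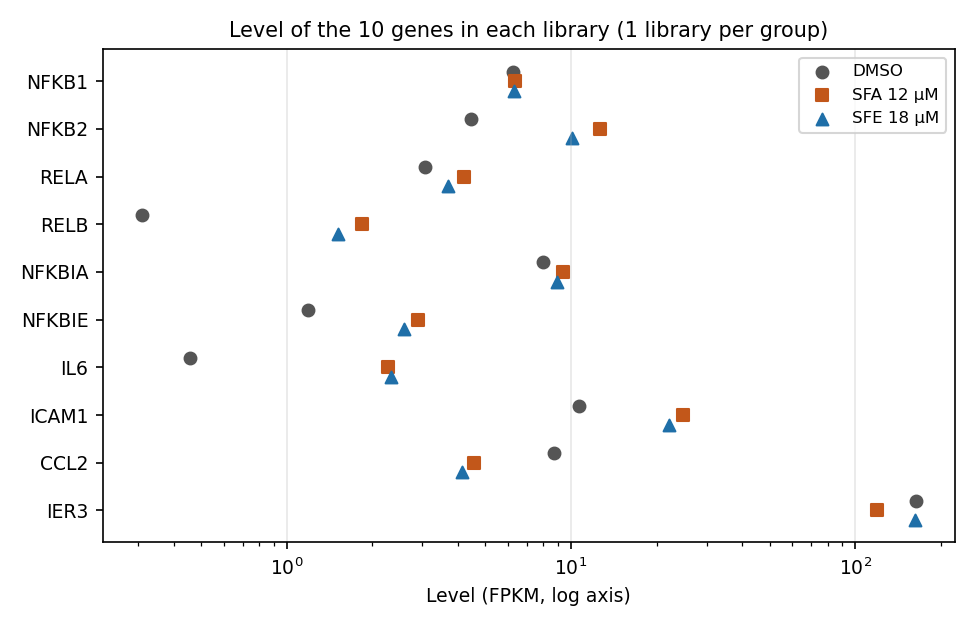
Level of each of the 10 genes in FPKM (log axis) in the DMSO, SFA and SFE libraries, 1 point per library. RELB, IL6, NFKBIE, NFKB2 and ICAM1 have the DMSO point on the left of both compound points, CCL2 has it on the right, and the NFKB1 points coincide between 6.27 and 6.33 FPKM.

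The libraries held 18767232 counts under DMSO, 13639844 under SFA and 13644676 under SFE. Epithelial identity was read from 8 markers fixed for this purpose. KRT8 and KRT18, keratins of simple epithelium, stood at 416 and 534 FPKM under DMSO, at 223 and 292 under SFA and at 232 and 294 under SFE. KRT7, a further simple keratin, went the other way at 118, 161 and 151 FPKM, and CLDN4, a tight junction gene, stood at 1.48, 1.97 and 1.72. EPCAM, KRT19 and CDH1 stayed under 0.4 FPKM in every library and ESRP1 was at 0 counts, so several markers of epithelial cells were absent or nearly so in cells labelled AGS. None of 12 leukocyte markers reached 1 FPKM (summed 1.31, 1.54 and 1.58 FPKM under DMSO, SFA and SFE), CD3E, CD3D, MS4A1 and TYROBP were at 0 counts throughout, and PTPRC had 2, 0 and 0 counts. Within that sum CD68, a macrophage marker, was higher in the compound libraries (17, 47 and 49 counts) and CSF1R, the CSF1 receptor gene, lower (102, 20 and 17). The part of other cell types in the results was not tested. None of 7 endothelial markers reached 1 FPKM (summed 0.703, 0.388 and 0.453 FPKM), with KDR and EMCN at 0 counts. In RNA of whole cultures fewer cells of a type and less RNA per cell cannot be told apart.

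Among the subunit genes NFKB2 and RELB, the pair of the non-canonical route, lay farthest from DMSO. NFKB2 (chromosome 10, 102394110 to 102402529, plus strand), which encodes a precursor and its processed DNA-binding product, stood at 4.45 FPKM under DMSO, 12.7 under SFA and 10.1 under SFE, from 569, 1176 and 941 counts. Both compound libraries lay above DMSO, by 2.84-fold with SFA (2.57 to 3.15) and 2.27-fold with SFE (2.05 to 2.53). RELB (chromosome 19, 45001430 to 45038198, plus strand), whose protein carries an activation domain and pairs with the NFKB2 product, stood at 0.308, 1.84 and 1.52 FPKM from 40, 173 and 143 counts. The DMSO library was again the low one, and the folds were 5.95 with SFA (4.20 to 8.62) and 4.92 with SFE (3.44 to 7.17). RELB was the lowest of the 10 genes with DMSO and its folds rest on 40 counts there, which is why their intervals are wide.

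The genes of the canonical pair lay closer to DMSO. RELA (chromosome 11, 65653596 to 65663094, minus strand), the main activating subunit, stood at 3.06, 4.20 and 3.68 FPKM under DMSO, SFA and SFE from 1027, 1027 and 899 counts. DMSO was the lowest of the 3, and the folds were 1.38 with SFA (1.26 to 1.50) and 1.20 with SFE (1.10 to 1.32). NFKB1 (chromosome 4, 102501329 to 102617302, plus strand), which encodes the precursor of RELA's usual partner, stood at 6.27, 6.33 and 6.30 FPKM from 1216, 892 and 888 counts. The 3 values were level within counting error, with ratios of 1.01 (0.925 to 1.10) and 1.004 (0.920 to 1.10), and the sign of the NFKB1 difference turned negative under TMM and under median-ratio scaling. REL, the remaining subunit gene and not one of the 10, stayed under 1 FPKM, at 0.828, 0.521 and 0.584 FPKM, and was named after its values were seen.

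Because NFKB1 stood level while NFKB2 and RELB stood higher, the make-up of the subunit RNA differed between libraries. The 5 subunit genes summed to 14.9 FPKM under DMSO, 25.55 under SFA and 22.2 under SFE. NFKB2 made up 29.8% of that sum under DMSO, 49.5% under SFA and 45.6% under SFE, and RELB 2.07%, 7.19% and 6.83%. NFKB1 went the other way as a share, at 42.1%, 24.8% and 28.4%, as did RELA at 20.5%, 16.5% and 16.6% and REL at 5.55%, 2.04% and 2.63%. The ratio of NFKB2 to NFKB1 in FPKM was 0.709 under DMSO, 1.999 under SFA and 1.61 under SFE, so NFKB1 was the more abundant RNA with DMSO and NFKB2 with either compound. FPKM uses 1 length per gene, so the order of 2 genes depends on that length, while the order of libraries for 1 ratio does not. The shares depend on these lengths as well. Under DMSO RELA made up 20.5% with 1027 counts and NFKB1 42.1% with 1216.

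**Figure D2:**
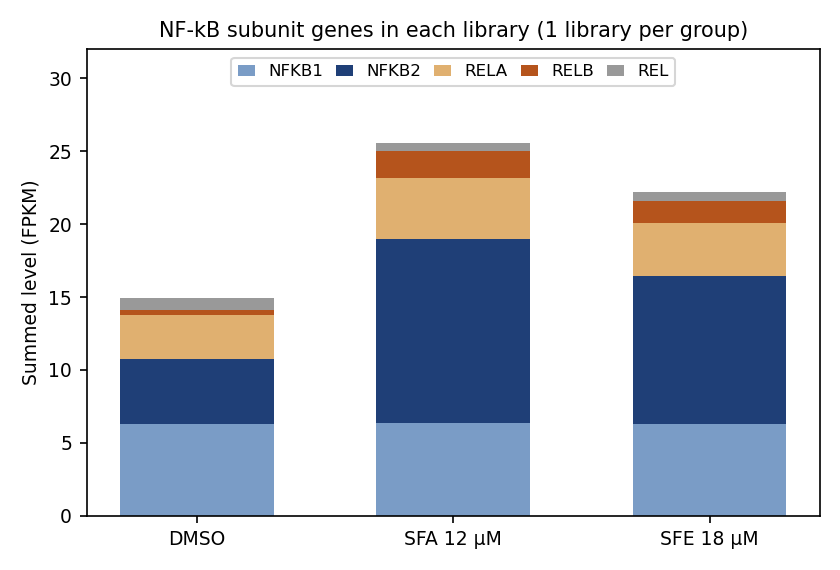
Summed level of the 5 NF-kB subunit genes in FPKM for each library, with 1 coloured segment per gene and bars from 0. The NFKB1 segment is of the same height in each bar, and the higher totals of 25.55 with SFA and 22.2 with SFE come mainly from the NFKB2 segment.

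Of the inhibitors, NFKBIE lay farther from DMSO than NFKBIA. NFKBIE (chromosome 6, 44258166 to 44265788, minus strand) encodes IkB epsilon, and it stood at 1.19 FPKM under DMSO, 2.90 under SFA and 2.59 under SFE from 116, 205 and 183 counts. Both compound libraries lay above DMSO, by 2.43-fold (1.93 to 3.08) and 2.17-fold (1.71 to 2.76), with both intervals reaching below 2. NFKBIA (chromosome 14, 35401511 to 35404749, minus strand), the inhibitor of the fast canonical response, stood at 7.99, 9.39 and 8.91 FPKM from 1047, 894 and 849 counts. Its folds were 1.17 with SFA (1.07 to 1.29) and 1.12 with SFE (1.02 to 1.22), small but outside counting error. With SFE that depended on the scaling, since the fold was 1.06 (0.963 to 1.16) under median-ratio and 1.04 (0.951 to 1.14) under TMM scaling. The ratio of NFKBIE to NFKBIA in FPKM was 0.149 under DMSO, 0.309 under SFA and 0.290 under SFE. On the log2(FPKM + 1) scale the NFKBIE differences were 0.83 and 0.71, short of the 2-fold limit of 1.

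IL6 and ICAM1 were the targets that stood higher. IL6 (chromosome 7, 22725884 to 22732002, plus strand), an inflammatory cytokine, stood at 0.456 FPKM under DMSO, 2.27 under SFA and 2.33 under SFE from 42, 152 and 156 counts. DMSO was the low library, and the folds were 4.98 with SFA (3.52 to 7.19) and 5.11 with SFE (3.61 to 7.37). IL6 overlaps the antisense gene AC073072.5, which was listed at 7, 22 and 17 counts, and since no source says whether strand was used in counting, reads of the 2 genes cannot be told apart with certainty. ICAM1 (chromosome 19, 10270835 to 10286615, plus strand), the adhesion molecule that leukocytes bind, stood at 10.7, 24.8 and 22.2 FPKM from 1102, 1858 and 1663 counts. Both compound libraries lay above DMSO, by 2.32-fold with SFA (2.15 to 2.50) and 2.08-fold with SFE (1.92 to 2.24). Its log2(FPKM + 1) difference with SFE was 0.99, just under the limit, and 1.14 with SFA. ICAM1 overlaps 2 antisense genes, CTD-2369P2.8 with 110, 184 and 208 counts and CTD-2369P2.5 with 13, 8 and 12.

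CCL2 and IER3 did not share that direction. CCL2 (chromosome 17, 34255218 to 34257203, plus strand), the chemokine that draws monocytes, stood at 8.74 FPKM under DMSO, 4.54 under SFA and 4.12 under SFE from 545, 206 and 187 counts. DMSO was the high library, and CCL2 was 1.92-fold lower with SFA (1.63 to 2.27) and 2.12-fold lower with SFE (1.79 to 2.52). Its differences in log2(FPKM + 1) were −0.81 and −0.93. Fibroblasts are known to express CCL2, and of 9 fibroblast markers 4 were measured, 3 of them lower in each compound library. Over all 11680 measured genes 5672 lay below DMSO with SFA and 5228 with SFE. The list summed to 31.1 FPKM under DMSO, 16.9 under SFA and 20.1 under SFE. The measured markers were COL1A1 at 11.3, 5.96 and 7.16 FPKM, COL3A1 at 8.47, 1.49 and 2.40, PDGFRB at 6.39, 2.63 and 2.99, and THY1, the one that stood higher, at 4.29, 6.48 and 7.25. Fibroblast genes were thus detected in cells labelled AGS, while PDGFRA was at 0 counts in all 3 libraries and COL1A2 at 1, 0 and 0. Under 1 FPKM in every library were also DCN (53, 10 and 6 counts), LUM (34, 14 and 6) and FAP (27, 15 and 24). The part of such cells in the CCL2 values was not tested. IER3 (chromosome 6, 30743199 to 30744554, minus strand), an immediate early gene that acts on cell survival, was the most abundant of the 10 at 164, 119 and 162 FPKM from 7971, 4209 and 5738 counts. By library totals the SFA library stood apart, 1.38-fold lower than DMSO (1.33 to 1.43), while the ratio of SFE to DMSO was 0.990 (0.957 to 1.02). That held for scaling by library totals: the SFE ratio was 0.937 (0.906 to 0.970) under median-ratio and 0.926 (0.895 to 0.958) under TMM scaling, below 1 beyond counting error. IER3 overlaps the antisense gene XXbac-BPG252P9.10, listed at 7, 10 and 6 counts.

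**Figure D3:**
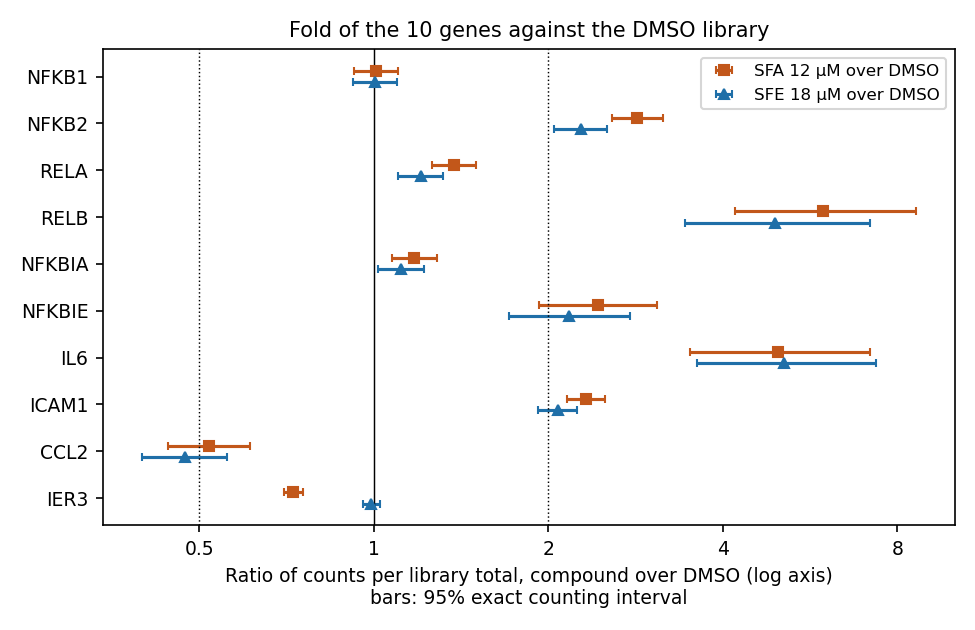
Ratio of counts per library total, compound over DMSO, for the 10 genes on a log axis, with 95% exact counting intervals as bars and dotted lines at 2-fold higher and lower. RELB and IL6 lie farthest to the right, NFKB1 lies on 1 for both compounds, CCL2 lies below 1 for both, and IER3 lies below 1 for SFA at 0.727.

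In order of FPKM with DMSO, IER3 came first, followed by ICAM1, CCL2, NFKBIA, NFKB1, NFKB2, RELA, NFKBIE, IL6 and RELB. That order depends on the length used for each gene. By counts alone RELA (1027) stood above NFKB2 (569) and CCL2 (545) with DMSO. By FPKM the neighbours CCL2 (8.02 to 9.50 FPKM) and NFKBIA (7.51 to 8.49), and IL6 (0.329 to 0.617) and RELB (0.220 to 0.420), had overlapping counting intervals. The other neighbours did not, with the lengths taken as given. Among all measured genes IER3 stood at percentile 98.7 under DMSO, ICAM1 at 75.8 and RELB at 1.10. ICAM1 was at percentile 89.1 under SFA and 87.6 under SFE, and NFKB2 went from 54.1 with DMSO to 79.0 and 74.0. RELB stood at 28.0 and 20.7 and IL6 at 34.4 and 34.1, so both remained in the lower part of the measured genes with either compound. RELB could enter only where it reached 1 FPKM, which fixes its low rank with DMSO.

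**Figure D4:**
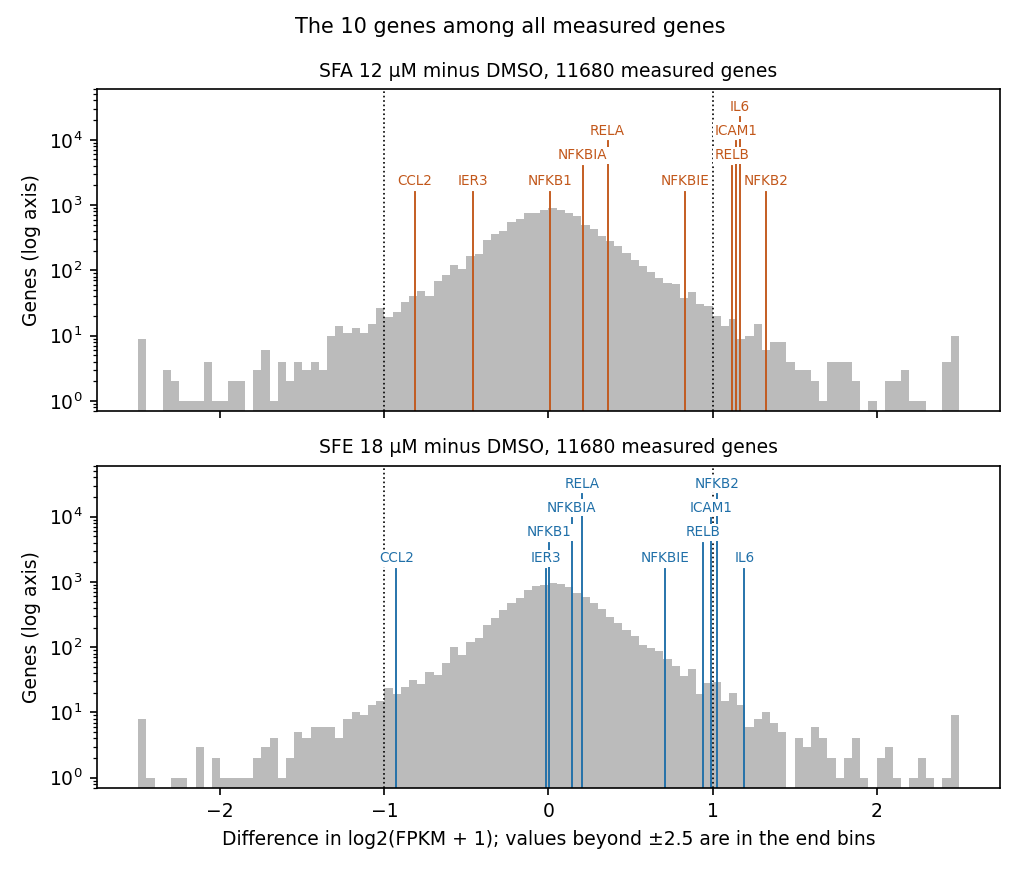
Histograms of the difference in log2(FPKM + 1) from DMSO over 11680 measured genes (counts of genes on a log axis), with SFA above and SFE below, vertical lines for the 10 genes and dotted lines at the 2-fold limits. NFKB2, IL6, ICAM1 and RELB lie past the upper limit with SFA, and IL6 and NFKB2 with SFE.

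The rest of the pathway was read from 8 lists holding 140 genes, of which 79 were measured. Without the 10 genes, 69 were measured, and in log2(FPKM + 1) 1 was at least 2-fold higher with SFA (1.36% of all measured genes) and 1 with SFE (1.37%), with 0 at least 2-fold lower in either. That is near the background. By ratio of counts 4 were higher and 1 lower with SFA (4.40% and 3.63% of all measured genes), and 4 and 1 with SFE (4.63% and 2.80%). Among those higher, LIF and CXCL16 passed the filter only through the compound libraries. The one lower, TNFSF10, passed it only through DMSO. The medians of the 69 were 0.09 and 0.14. The gene past the log2(FPKM + 1) limit was CSF1, the macrophage growth factor, which overlaps no other gene. CSF1 stood at 1.22 FPKM under DMSO, 4.80 under SFA and 4.32 under SFE, which gives 3.94-fold (3.32 to 4.69) and 3.54-fold (2.98 to 4.23).

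Upstream, most ligand genes stayed under 1 FPKM in every library, with IL18 as an inflammatory ligand that did not. Of 11 ligand genes 2 were measured, and none was at least 2-fold higher or lower in log2(FPKM + 1). TNF, the classical activator, had 0, 0 and 2 counts under DMSO, SFA and SFE, and IL1B was at 0 counts in each. TNFSF12, which encodes TWEAK and overlaps 2 other genes, LTA and TNFSF11 were also at 0 counts in each, and LTB had 0, 2 and 1. All of these were named after their values were seen. A count of 0 allows, by a floor of 3 counts, up to 0.160 CPM with DMSO and 0.220 with SFA or SFE, where CPM is the count scaled to a library of 1e+06. The 2 measured ligands were IL18 at 5.89, 6.40 and 5.42 FPKM and TNFSF10, which encodes the death ligand TRAIL, at 1.75, 0.525 and 0.577 FPKM, 3.34-fold lower with SFA (2.36 to 4.83) and 3.04-fold lower with SFE (2.18 to 4.33). Among receptors 7 of 18 were measured, with medians of 0.18 with SFA and 0.16 with SFE and none past the 2-fold limit in log2(FPKM + 1). By ratio of counts 1, TNFRSF12A, was at least 2-fold higher with SFA (4.40% of all measured genes) and 0 with SFE (4.63%). TNFRSF12A, the TWEAK receptor that feeds the non-canonical route, stood at 33.3, 67.4 and 52.5 FPKM, 2.03-fold (1.92 to 2.14) and 1.58-fold (1.49 to 1.67) above DMSO, and its log2(FPKM + 1) difference with SFA lay just under the limit. LTBR, the lymphotoxin beta receptor, stood at 13.6, 17.5 and 18.4 FPKM, TNFRSF10A, a TRAIL receptor, at 10.5, 14.6 and 13.4, and TLR4, the receptor for lipopolysaccharide, at 1.01, 1.28 and 1.19.

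Of 29 kinases and adaptors 24 were measured, with 14 above and 10 below DMSO for SFA and 13 above and 11 below for SFE. Over all 11680 measured genes 6002 lay above and 5672 below DMSO for SFA, and 6445 and 5228 for SFE. The medians of the list were 0.02 and 0.10, and none was past the 2-fold limit in log2(FPKM + 1). By ratio of counts 0 were at least 2-fold higher with SFA (4.40% of all measured genes) and 1 with SFE (4.63%). That gene was TRAF3, at 1.32, 1.52 and 3.27 FPKM, described below. MAP3K14, which encodes NIK, stood at 8.28 FPKM under DMSO, 14.7 under SFA and 14.3 under SFE, 1.78-fold (1.66 to 1.90) and 1.73-fold (1.62 to 1.85). IRAK2, a kinase-like adaptor of interleukin-1 and Toll-like receptors, stood at 7.62, 13.5 and 12.0 FPKM. IRAK1, its partner kinase, stood at 45.7, 50.9 and 69.9 FPKM, with the SFE library as the high one. MAP3K14 overlaps an antisense gene, TNFRSF12A, LTBR and TNFRSF10A each overlap other genes, which leaves their values uncertain, while IRAK1 and IRAK2 overlap none.

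Among the IkB proteins and other brakes 10 of 15 were measured, with medians of 0.04 with SFA and 0.16 with SFE. None was past the 2-fold limit in log2(FPKM + 1). By ratio of counts 1, NFKBIE, was at least 2-fold higher with SFA (4.40% of all measured genes) and with SFE (4.63%). Beside NFKBIE, the largest difference was that of TNIP1, a partner of the brake A20, at 5.12, 7.63 and 6.97 FPKM (1.49-fold, 1.37 to 1.62, and 1.36-fold, 1.25 to 1.48). TNIP2, a relative of TNIP1, stood at 6.36, 6.38 and 7.48 FPKM, NFKBIB, which encodes IkB beta, at 3.91, 3.63 and 4.56, and NFKBIL1 at 13.7, 14.6 and 15.6. The gene of A20 itself, TNFAIP3, stayed under 1 FPKM with 56, 51 and 42 counts and was named after its values were seen.

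Of 31 secreted and surface targets 12 were measured and 9 were at 0 counts in all 3 libraries, among them CXCL1, CCL20, VCAM1 and SELE, named after their values were seen. With IL6, ICAM1 and CCL2 included, 3 were at least 2-fold higher with SFA (1.36% of all measured genes) and 2 with SFE (1.37%) in log2(FPKM + 1), with medians of 0.46 and 0.44. By ratio of counts 5 were higher and 0 lower with SFA (4.40% and 3.63%), and 5 and 1 with SFE (4.63% and 2.80%). Beside CSF1, the rule named CD83, a surface glycoprotein, at 2.42, 4.34 and 4.43 FPKM, LIF, a cytokine of the IL-6 family, at 0.619, 1.38 and 1.30, and CXCL16, a chemokine, at 0.523, 1.13 and 1.21. LIF was 2.23-fold (1.57 to 3.21) and 2.10-fold (1.47 to 3.03) above DMSO. IL6, LIF, CXCL16 and CXCL2 were under 1 FPKM with DMSO and passed the filter only through a compound library where they stood higher. The counts and medians of this list are therefore a description. LIF and CXCL16 both overlap other genes. CXCL8, the interleukin-8 gene, had 3, 6 and 11 counts and was likewise named afterwards.

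Intracellular targets had smaller medians than the secreted and surface targets, a comparison that the filter affects. Of 21 genes 13 were measured, with medians of 0.05 with SFA and 0.16 with SFE. None was past the 2-fold limit in log2(FPKM + 1) or by ratio of counts. By that ratio 4.40% of all measured genes were higher and 3.63% lower with SFA, and 4.63% and 2.80% with SFE. The largest difference of the list was that of EHD1, lower with SFA, at 10.2, 5.53 and 11.8 FPKM, described below. NUAK2, a kinase, stood at 3.87, 5.75 and 5.43 FPKM, IRF1, an interferon regulatory factor, at 1.17, 1.94 and 1.75, and GADD45B, a stress gene, at 2.67, 3.37 and 3.75. The IL-6 response list had 7 of 13 genes measured, with medians of −0.15 with SFA and 0.01 with SFE and none past the limit on either scale. SOCS3, the feedback inhibitor that IL-6 signalling is known to turn on, stood at 16.8 FPKM under DMSO, 14.4 under SFA and 14.8 under SFE. The receptor genes IL6R and IL6ST stood at 0.939, 1.37 and 1.56 FPKM and at 1.45, 1.09 and 1.48 FPKM, and OSMR, a related receptor, at 15.7, 18.1 and 18.2.

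**Figure D5:**
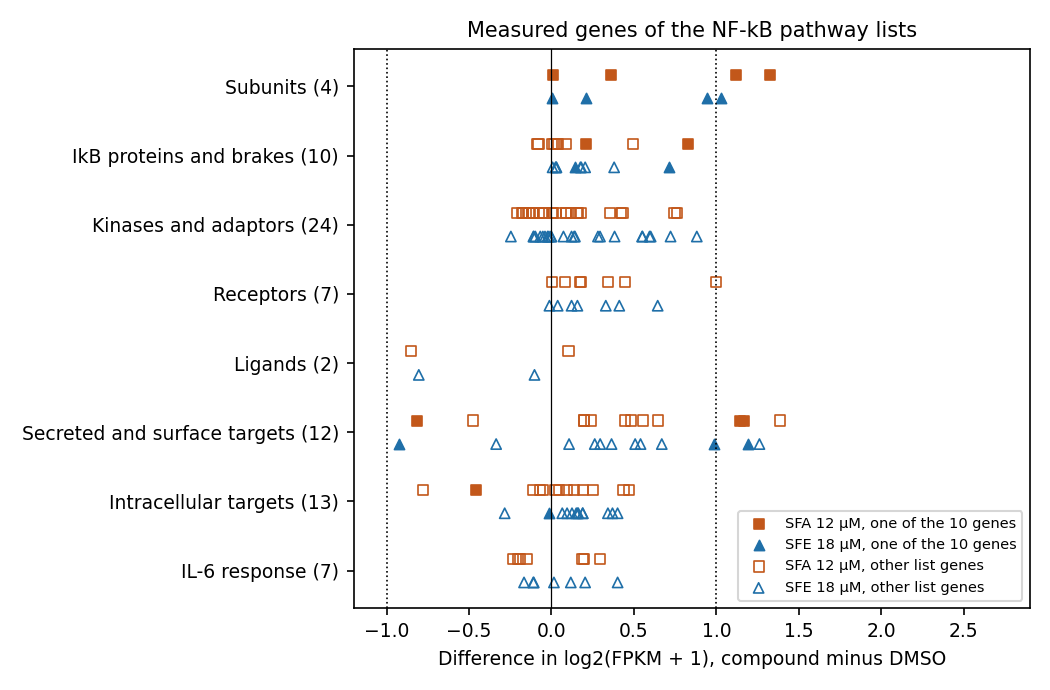
Difference in log2(FPKM + 1) from DMSO for the measured genes of 8 pathway lists, with squares for SFA and triangles for SFE, filled where the gene is one of the 10, and dotted lines at the 2-fold limits. The points past the upper limit lie among the subunits and the secreted and surface targets, and the open symbol there is CSF1 at 1.39 and 1.26.

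The genes whose pair of differences from DMSO came closest to those of NFKB2 and IL6, the members past 2-fold on the log2(FPKM + 1) scale for each compound, were sought among protein-coding genes that reached 5 FPKM in any library. Likeness was the distance between the 2 differences, which rest on 3 libraries and share DMSO. For NFKB2 the closest of 4937 genes were HRCT1 (distance 0.036), GSR, the glutathione reductase gene (0.056), and SQSTM1, an autophagy receptor gene (0.11). SQSTM1 overlaps 2 other genes. The pseudocount damps NFKB2 too, whose SFA difference of 1.33 was 1.49 with a pseudocount of 0.1 FPKM. GSR stood at the higher level of 50.2, 124 and 100 FPKM, so its likeness also holds on that scale only. For IL6 the closest were B3GAT3 (0.042), DHRS3 (0.044) and PANX2 (0.067). IL6 was under 1 FPKM with DMSO, where the pseudocount damps its difference, so the likeness holds on that scale only: B3GAT3 stood at 7.88, 19.4 and 18.9 FPKM, against folds of 4.98 and 5.11 for IL6.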

How the data were processed

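RNA sequencing of 3 libraries of AGS cells, 1 per group, was analysed. The authors deposited raw counts and FPKM per gene in 1 table, per the file headers. The tools named in the submitters' processing notes are HISAT2 2.0.4 and StringTie 1.2.3, with build hg38, in roles not stated there. No source used here names the counting tool, its strand setting or the annotation release. Coordinates are those of the table, and all 10 genes had the same start and end in GENCODE 29.

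Where several identifiers shared a gene name, the identifier of highest mean FPKM stood for it. A minimum of 1 FPKM in any library left 11680 measured genes. Differences are in log2(FPKM + 1), with a limit of 2-fold. Folds are ratios of deposited counts over library totals with exact conditional (Clopper-Pearson) binomial 95% intervals, and intervals of single levels are exact Poisson. Reads were not counted by molecular identifier. With 1 library per group, edgeR 4.0.16 served for TMM scaling only and no p-value was computed. A floor of 3 counts was used for genes at 0. Scripts (Python 3.11.15, pandas 2.3.3, scipy 1.17.1) were tested on simulated data.

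The 10 genes and the lists were chosen with earlier results of these data known. Genes named were the 10, up to 4 others per pathway list with the largest difference, and the 3 genes most like each of the 10 that passed 2-fold in the same direction with both compounds. Markers of cell types and a few genes said to be named after their values were seen stand outside this rule. Alternatives were the pseudocount, the filter, the scaling, a ratio without pseudocount, and leaving out genes that overlap another (56.1% of the table).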

Additional observations from a re-analysis of the deposited data

How the results depend on the processing

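With a pseudocount of 0.1 FPKM, 5 of the 10 genes were at least 2-fold higher and 1 lower with SFE, and over all measured genes 452 were higher and 374 lower with SFA, 464 and 282 with SFE. As a ratio of counts without pseudocount the 10 genes also gave 5 and 1 with SFE, and all genes 514 and 424 with SFA, 541 and 327 with SFE. At a filter of 5 FPKM only 6 of the 10 genes remained, with 2 at least 2-fold higher with SFA and 1 with SFE. The 5455 genes kept there gave 98 higher and 95 lower with SFA, and 94 and 72 with SFE. Without genes that overlap another, 7 of the 10 remained, with 2 higher with SFA and 1 with SFE. The 3957 genes kept there gave 55 higher and 48 lower with SFA, and 47 and 33 with SFE. Median-ratio scaling left 1 of the 10 at least 2-fold higher with SFE, and all genes gave 130 higher and 144 lower. TMM scaling left 1 higher and put 1 lower with SFE, and all genes gave 127 and 148. By library totals all genes gave 160 higher and 118 lower with SFE. Fewer genes entered only at the 5 FPKM filter and without overlapping genes. Under median-ratio and TMM scaling all 10 were kept among 11678 and 11688 measured genes. There the SFE difference of NFKB2 went from 1.03 to 0.96 and 0.95, and that of CCL2 from −0.93 to −0.99 and −1.01. Causes were not tested. The difference of NFKB1 changed sign under both scalings, to −0.02 and −0.06 under median-ratio and −0.04 and −0.08 under TMM scaling for SFA and SFE; no other sign among the 10 changed under any alternative run. Scaling also decided whether the interval included 1 for IER3 and NFKBIA with SFE. RELB and IL6, at 40 and 42 counts with DMSO, are the values that depth limits most. No paired analysis was possible because each group has 1 library.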

Other observations

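TRAF3 and EHD1, which the rule named for their lists, were set apart here after their values were seen. Both lay farther from DMSO in 1 compound library than in the other. TRAF3, an adaptor that restrains NIK, stood at 1.32 FPKM under DMSO, 1.52 under SFA and 3.27 under SFE, from 462, 386 and 833 counts, and overlaps no other gene. Its ratio to DMSO was 1.15 with SFA (1.002 to 1.32) and 2.48 with SFE (2.21 to 2.79). EHD1, a gene of endosomal recycling in the list of intracellular targets, stood at 10.2, 5.53 and 11.8 FPKM, from 2993, 1177 and 2512 counts. It was 1.85-fold lower than DMSO with SFA (1.73 to 1.98) and 1.15-fold higher with SFE (1.09 to 1.22), and it overlaps another gene. These differences between the compound libraries were not tested, since each has 1 library and the doses differ.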
